A study of Mus musculus with 12 samples.

Results

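RNA-seq gene counts of 3 libraries of adult enterocytes (AE) were compared with those of 3 libraries of embryonic intestinal epithelium titled E14.5, that is 6 of the 12 libraries of a study of mouse small-intestinal epithelium. The members were found by the sample titles, and all genes were described. AE were sorted from the small intestine of Lgr5EGFP-Cre-ERT males at postnatal day 60, 1 gut a library. In these mice a green fluorescent reporter and an inducible Cre are read from the Lgr5 locus, which is active in crypt stem cells, and no use of the Cre is described for these libraries. The E14.5 cells came from embryos, with the number pooled per library not given in the sources used here. Both groups have a mixed C57BL/6 CD1 background and passed the same gate, positive for the epithelial surface protein EpCAM and negative for CD31 (endothelium), CD45 (white blood cells) and the dead-cell dye DAPI. The gate holds no marker of absorptive cells. The age label of the libraries titled E14.5 reads E12.5 and that of the libraries titled E12.5 reads E14.5. The titles were followed, and the calls of named genes that differ with the libraries titled E12.5 in their place are given in the text. The other 6 libraries, titled E12.5 and Lgr5+ stem cells, entered the fit for its estimate of spread. They list multiply aligned reads, at 3.06% to 5.96% of a library's counted reads, where the AE and E14.5 libraries list 0. Every result with the libraries titled E12.5 therefore crosses this difference in processing as well as the stage, and its part was not tested.

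In the adult small intestine, stem cells at the base of crypts renew a sheet of short-lived cells that move up the villi. Most of these are enterocytes, which carry a brush border of microvilli, digest and take up nutrients, and clear foreign compounds, while goblet, Paneth, enteroendocrine and tuft cells secrete mucus, antimicrobial proteins, hormones and signals. At E14.5 the mouse gut epithelium is a dividing layer that is starting to form villi. It has not met food, milk or bacteria, and its growth programme includes the fetal RNA-binding proteins of the Lin28 and Igf2bp families and imprinted growth genes, which are largely shut down after birth.

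Total gene counts, in units of 1000000, were 34.2, 17.5 and 12.6 in AE replicates 1, 2 and 3, against 35.0, 45.2 and 19.6 in E14.5. The values of single libraries below follow the same order of replicates, and levels are normalised counts per 1000000 (CPM), which can be compared between libraries for 1 gene but not between genes of different length. The AE libraries varied more than the E14.5 libraries, with a common biological coefficient of variation of 0.242 in AE and 0.0471 in E14.5. The series' design text calls the 3 libraries of a group biological triplicates. AE replicate 1 stood apart from the other AE libraries in the direction of E14.5. On the first principal component of the 6 libraries, which held 94.2% of the variance, AE stood at -127, -160 and -159, against 149.5, 148 and 148 in E14.5. AE replicate 1 was the lowest AE library for 65.0% of the genes higher in AE and the highest for 54.2% of the genes lower in AE, counting genes called at a log2 change of at least 1. The same shares over all genes tested, and for the other AE libraries, were not computed. AE replicate 1 was also the deepest AE library, and the part of depth was not tested. AE counts were gathered in fewer genes: the 50 most abundant genes of a library took 21.5% ± 2.65 of the gene counts in AE and 13.2% ± 0.475 in E14.5 (SD, n = 3 each). In a two-sided exact permutation test that difference had p = 0.1, the smallest p that 3 against 3 libraries allow.

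Of 15342 genes tested, 5632 (36.7%) were higher in AE and 6368 (41.5%) were lower, so 78.2% differed by edgeR's quasi-likelihood test at an adjusted p under 0.05. With a log2 change of at least 1 added, 3748 (24.4%) were higher and 4411 (28.8%) lower. For 81.5% of genes the AE and E14.5 values lay wholly apart, and the median log2 change over all genes was -0.12. Given such a background, a list of genes is read below against these shares. The change was at least 5 on the log2 scale for 587 genes higher and 799 genes lower in AE. All 3 AE libraries held 0 counts for 498 of the genes tested, and all 3 E14.5 libraries for 71. A fold against such a group is a bound, computed against 3 counts over the group, or 0.0606 CPM in AE and 0.0263 CPM in E14.5.

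Cyp3a25, Cyp3a11 and Cyp2b10, cytochrome P450 genes of the detoxifying families, led the genes higher in AE by fitted change. All 3 had 0 counts in E14.5, so their place rests on the prior count of the fit. Cyp3a11 had 193, 934 and 679 CPM in AE, against 0 counts in every E14.5 library, at least 22896-fold higher. Cyp3a25 had 359, 1321 and 882 CPM in AE, against 0 counts in every E14.5 library, with 26.8% of its sequence shared with other genes, so that its counts are uncertain. Cyp2b10 had 150.3, 773 and 362 CPM in AE, against 0 counts in every E14.5 library, and AE replicate 1 was the lowest AE library for all 3 genes. The other genes of the 10 leaders were Zg16, a goblet-cell lectin gene, Enpp7, the intestinal alkaline sphingomyelinase gene, Slc5a12, a sodium-coupled monocarboxylate transporter gene, the carboxylesterase gene Ces1f, and Gm14851, Gm15284 and 2010106E10Rik, with 55.6% of Gm14851 and 52.4% of Gm15284 shared with other genes. At the other end, H19, an imprinted noncoding RNA gene, had 0.0701, 0.490 and 0.114 CPM in AE, against 6392, 6127 and 6834 CPM in E14.5. Gpc3, a heparan sulphate proteoglycan gene of fetal tissues, had 0 counts in every AE library, against 136, 140.2 and 133 CPM in E14.5, at least 2255-fold lower in AE. Trim71, a partner of the Lin28 pathway, had 0 counts in every AE library, against 95.5, 94.6 and 92.6 CPM in E14.5, at least 1556-fold lower. Fscn1, an actin-bundling gene, Lama1, a laminin chain gene of basement membranes, Ltbp1, a binding partner of latent TGF-beta, Cbln2, Prrg3 and the endocytic receptor gene Lrp2 likewise had 0 counts in every AE library, against means of 81.8, 81.0, 62.0, 55.3, 43.5 and 32.8 CPM in E14.5. Igf2bp1, an oncofetal RNA-binding protein gene, completed the 10 with 1 count over the AE libraries, against 299.9, 306 and 311 CPM in E14.5.

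**Figure D1:**
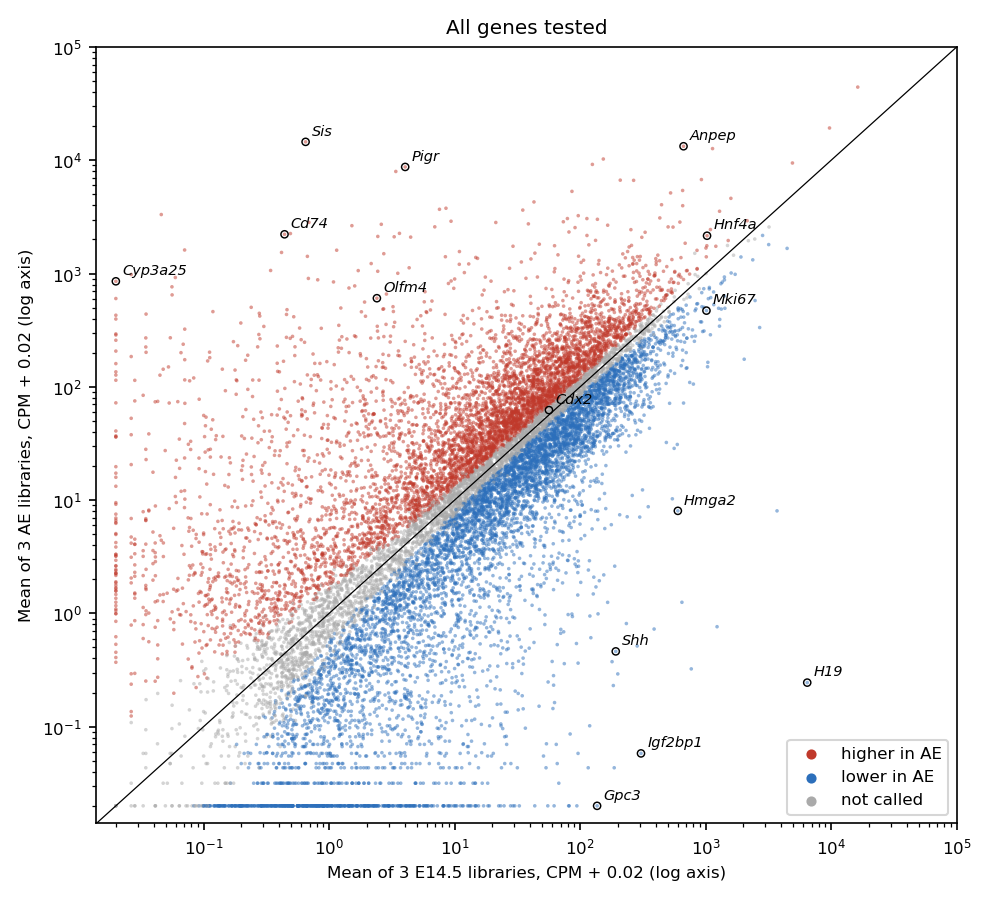
Mean level of each of the 15342 genes tested in AE (vertical, CPM + 0.02, log axis) against E14.5 (horizontal, same scale), 1 point a gene, coloured by call at an adjusted p under 0.05. Points at the lowest edge of an axis are genes with 0 counts in all 3 libraries of that group, such as Gpc3 in AE and Cyp3a25 in E14.5, and Cdx2 lies beside the line of equal levels.

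The label of enterocytes was checked against 11 markers of that cell type. All 11 were higher in AE, from Vil1, the microvillus actin-bundling gene villin, at a log2 change of 3.29, to Sis, which encodes sucrase-isomaltase, at 14.49. Markers of the other epithelial cell types were also present in AE. Muc2, the gel-forming mucin gene of goblet cells, had 7519, 9722 and 6659.8 CPM in AE, against 2.89, 3.82 and 3.43 CPM in E14.5. Lyz1, the Paneth-cell lysozyme gene, had 6245, 2577 and 2494 CPM in AE, against 9.02, 8.88 and 7.65 CPM in E14.5, and AE replicate 1 was the highest AE library. The proliferation marker gene Mki67 had 641, 344 and 427 CPM in AE, against 993, 1038 and 1015 CPM in E14.5. In bulk samples of this kind, fewer cells of a type and less RNA per cell cannot be told apart. The AE libraries are EpCAM-sorted adult epithelium with enterocyte RNA and RNA of other epithelial cell types. The E14.5 libraries also held enterocyte transcripts, with means from 0.630 CPM for Sis to 667 CPM for Anpep over the 11 markers, and mesenchyme markers, as given below.

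**Figure D2:**
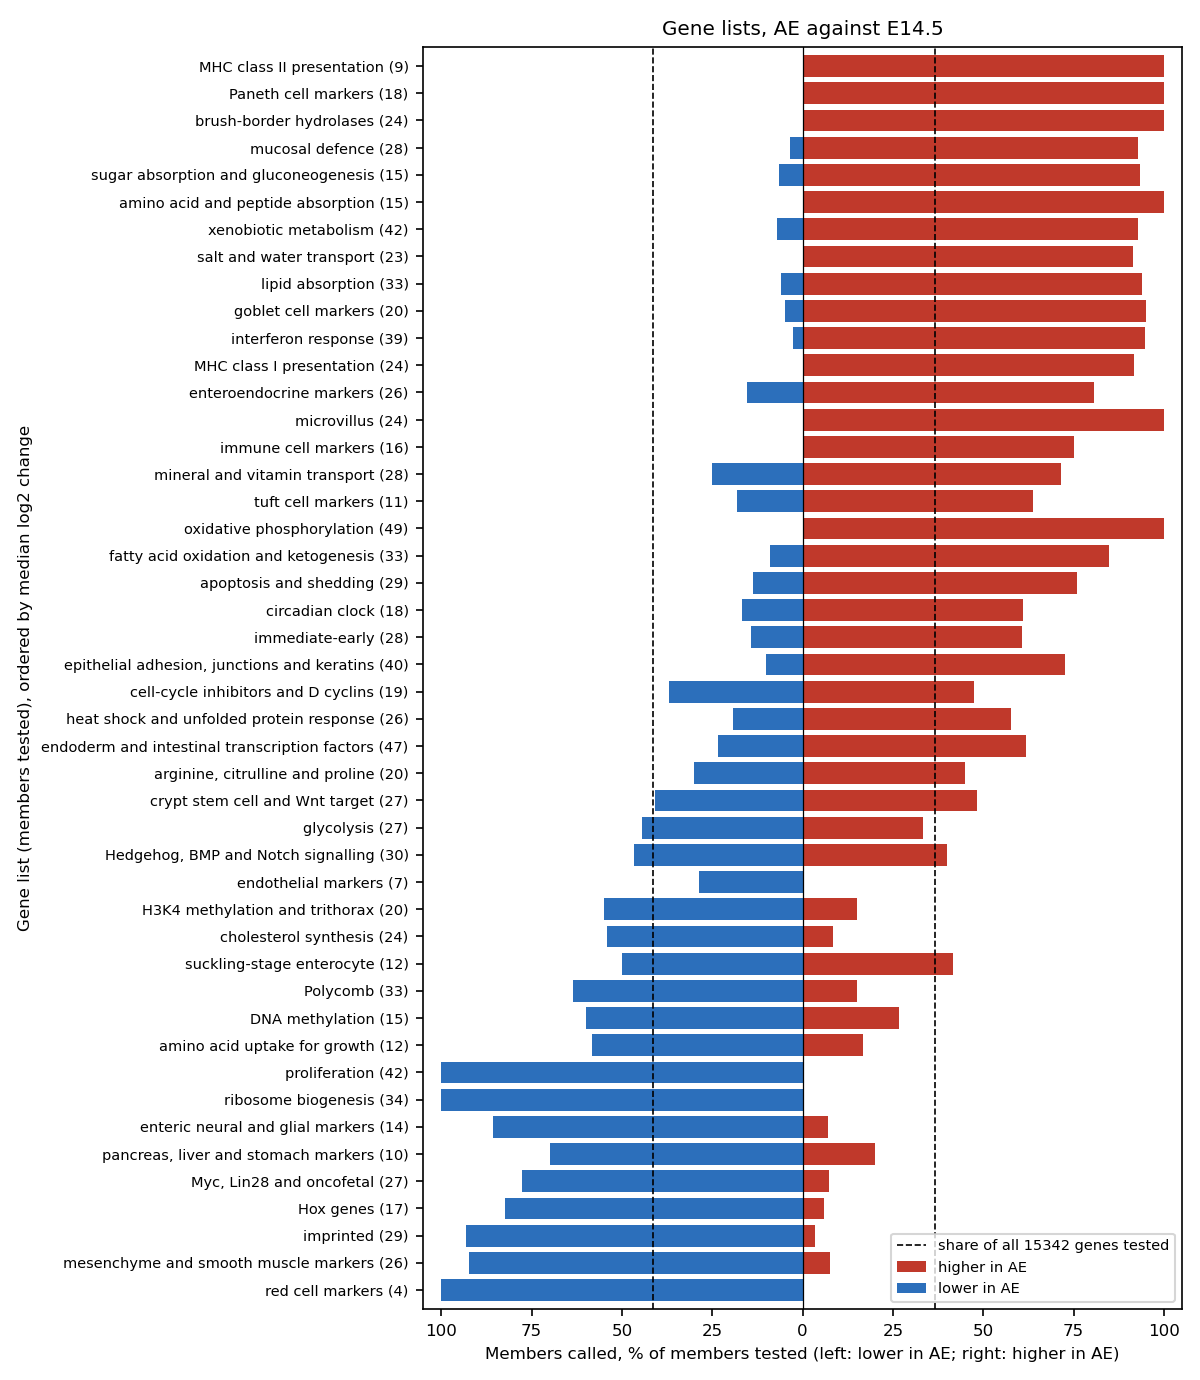
Share of the tested members of each gene list called higher in AE (right) and lower in AE (left) at an adjusted p under 0.05, with lists ordered by their median log2 change and the number tested in brackets. The dashed lines give the shares of all 15342 genes, 36.7% higher and 41.5% lower, and the absorptive, defence and secretory lists lie far to the right while the proliferation, ribosome biogenesis, imprinted and mesenchyme lists lie far to the left.

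The digestive enzymes of the brush border separated the groups clearly. All 24 brush-border hydrolase genes were higher in AE, with a median log2 change of 7.03. Sis had 11005, 15994 and 16631 CPM in AE, against 0.748, 0.527 and 0.615 CPM in E14.5. Lct, the lactase gene, had 1139, 3420.3 and 3606 CPM in AE, against 2.24, 3.14 and 2.37 CPM in E14.5, a log2 change of 10.02 ± 0.70 (SE, adjusted p = 1.17e-08). AE replicate 1 was the lowest AE library for both genes and was above every E14.5 library. The 2 intestinal alkaline phosphatase genes differed in how much of them the embryo held: Akp3 had 802, 2066 and 1975 CPM in AE, against 0.0249, 0.0390 and 0.0879 CPM in E14.5, whereas Alpi had 1795, 3265 and 3411 CPM in AE, against 21.6, 21.6 and 20.7 CPM in E14.5. Enpp7, which splits dietary sphingomyelin, had 384, 1280.5 and 1276 CPM in AE, against 0, 0.0195 and 0 CPM in E14.5, and the E14.5 value of replicate 2 is 1 count. Anpep, encoding aminopeptidase N, had 8472, 17613 and 13801 CPM in AE, against 656, 683 and 661 CPM in E14.5, a log2 change of 4.32 ± 0.28 (SE, adjusted p = 5.02e-09). The summed level of the list was 36443, 73998 and 69045 CPM in AE, against 1347, 1408 and 1352 CPM in E14.5.

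The DNA before the start is shown for 3 absorptive genes higher in AE and for Trim71, among the leading genes lower in AE. The absorptive genes are Sis, Alpi and Fabp2, with log2 changes of 14.49, 7.05 and 6.20. All were picked by hand, so their windows do not stand for the genes of either direction. Each window holds the 250 bases before the RefSeq start, 5′ to 3′, from RefSeq sequence of the GRCm38.p6 build, which is not the mm9 build of the counts. The windows are chr3:72967864-72968113 on the minus strand for Sis, chr1:87101607-87101856 on the minus strand for Alpi, chr3:122894822-122895071 on the plus strand for Fabp2 and chr9:114564370-114564619 on the minus strand for Trim71. Capitals mark matches, on either strand, to TATAAA (a box that places transcription starts), GTTAAT (part of the site of HNF1 factors), CAAAGT (a core of HNF4 sites) and TTTATG (a core of Cdx sites).
Sis: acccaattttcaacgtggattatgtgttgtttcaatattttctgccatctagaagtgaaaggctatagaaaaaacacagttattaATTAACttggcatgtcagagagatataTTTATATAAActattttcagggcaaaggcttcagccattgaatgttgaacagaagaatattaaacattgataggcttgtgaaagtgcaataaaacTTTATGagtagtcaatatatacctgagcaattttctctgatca
Alpi: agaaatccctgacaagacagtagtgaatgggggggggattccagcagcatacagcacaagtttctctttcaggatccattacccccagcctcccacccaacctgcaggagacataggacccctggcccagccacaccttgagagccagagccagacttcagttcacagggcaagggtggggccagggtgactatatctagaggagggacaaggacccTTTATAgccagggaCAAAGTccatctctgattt
Fabp2: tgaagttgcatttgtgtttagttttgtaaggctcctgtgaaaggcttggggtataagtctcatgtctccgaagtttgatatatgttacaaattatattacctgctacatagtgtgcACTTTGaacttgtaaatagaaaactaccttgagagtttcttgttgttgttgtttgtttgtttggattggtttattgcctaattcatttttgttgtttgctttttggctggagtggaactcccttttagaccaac
Trim71: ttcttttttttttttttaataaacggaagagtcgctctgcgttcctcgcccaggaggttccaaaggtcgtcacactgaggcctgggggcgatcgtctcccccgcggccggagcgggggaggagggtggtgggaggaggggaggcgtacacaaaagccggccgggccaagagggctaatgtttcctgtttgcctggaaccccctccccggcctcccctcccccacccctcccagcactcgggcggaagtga
The Sis window held 4 matches, of which the pair to TATAAA overlap, the Alpi window 2, the Fabp2 window 1 and the Trim71 window 0. Over all 32851 windows listed, 12.4% held TATAAA, 6.43% GTTAAT, 12.6% CAAAGT and 10.8% TTTATG, so single matches are common. The Trim71 window held 17 CG pairs, against 1 in Sis, 0 in Alpi and 1 in Fabp2, where the median window held 6. A match is a description of letters, and binding was not measured.

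The scaffold under these enzymes differed by less. All 24 microvillus genes were higher in AE, with a median log2 change of 2.44, and their summed level was 18790.5, 29094 and 28441 CPM in AE, against 3255, 3363 and 3199 CPM in E14.5. Cdhr2 and Cdhr5, the protocadherin genes that link microvillus tips, had log2 changes of 5.12 and 4.75. Villin RNA stood at 3915, 5690.4 and 5846 CPM in AE, against 516, 527 and 534 CPM in E14.5, and Tmigd1, an adhesion gene of the brush border, at 18.7, 76.9 and 15.4 CPM, against 0.0748, 0.156 and 0.0879 CPM.

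Nutrient transporters followed the enzymes. Of 15 genes for sugar absorption and gluconeogenesis, 14 were higher in AE, with a median log2 change of 6.52, and Galk1, the galactokinase gene, was lower. Slc5a1, the sodium-glucose cotransporter, had 2261, 6027 and 4574 CPM in AE, against 41.2, 45.2 and 42.1 CPM in E14.5. The facilitative transporter genes Slc2a2, for glucose at the basal side, and Slc2a5, for fructose, had log2 changes of 8.94 and 6.84. G6pc, the last enzyme of gluconeogenesis, had 116, 95.4 and 195 CPM in AE, against 0 counts in every E14.5 library, at least 5159-fold higher. All 15 genes for absorption of amino acids and peptides were higher, with a median of 6.21. Slc15a1, the peptide transporter PepT1, had 338, 969 and 929 CPM in AE, against 1.37, 1.31 and 1.58 CPM in E14.5. Slc6a19, the neutral amino acid transporter B0AT1, had 232, 657 and 621 CPM in AE, against 0.224, 0.215 and 0.220 CPM in E14.5, and neither gene overlapped between the groups.

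A second class of amino acid transporters, used by dividing cells, ran the other way. Of 12 such genes, 7 were lower and 2 higher in AE, with a median log2 change of -1.49. Slc38a1, a glutamine transporter, had 148, 90.1 and 90.0 CPM in AE, against 747, 759.9 and 734 CPM in E14.5. Slc7a5 and Slc3a2 encode the light and heavy chains of the LAT1 transporter and parted: Slc7a5 had 14.6, 7.68 and 10.5 CPM in AE, against 65.4, 66.4 and 66.3 CPM in E14.5, while Slc3a2 had 272, 426 and 418 CPM in AE, against 111, 116 and 113 CPM in E14.5. Slc7a9, which also pairs with a heavy chain of this family and absorbs cystine, had 161, 222 and 187 CPM in AE, against 8.62, 9.37 and 10.3 CPM in E14.5.

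Fat handling was strongly adult. Of 33 lipid absorption genes, 31 were higher in AE and 2 lower, with a median log2 change of 4.77. Fabp2, the intestinal fatty acid-binding protein gene, had 3549, 10309 and 13728 CPM in AE, against 123, 121 and 131 CPM in E14.5, a log2 change of 6.20 ± 0.46 (SE, adjusted p = 2.26e-08). Apob and Mttp, which build the chylomicron, were already transcribed in E14.5: Apob had 5378, 12889.8 and 19762 CPM in AE, against 1161, 1230.3 and 1015 CPM in E14.5, and Mttp had 2417, 3274 and 3347 CPM in AE, against 136, 138 and 138 CPM in E14.5. Abcg8, a subunit of the sterol efflux pump, had 262, 406 and 597 CPM in AE, against 0.473, 0.176 and 0.132 CPM in E14.5, and Npc1l1, the cholesterol uptake protein, had 1670.5, 3025 and 3995 CPM in AE, against 8.85, 9.66 and 9.54 CPM in E14.5. Fabp6, the ileal bile acid-binding protein gene, had 116, 494 and 77.8 CPM in AE, against 0.324, 0.293 and 0.483 CPM in E14.5. It is a gene of the distal gut, and AE replicate 2 was the highest AE library. Apoa4, at 3692 CPM in AE against 7.56 CPM in E14.5, shares 60.9% of its sequence with other genes and is uncertain. The 2 lower genes were Acsl3, a fatty acid activating enzyme, and Scarb1, a lipoprotein receptor.

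Of 42 genes of foreign-compound and retinoid metabolism, 39 were higher in AE, with a median log2 change of 5.41, and 5 had 0 counts in every E14.5 library. Among them were genes of the fatty acid hydroxylase family: Cyp4f14 had 1527, 2384 and 2468 CPM in AE, against 2.42, 2.44 and 2.42 CPM in E14.5, and Cyp4v3 had 541, 1995 and 1956 CPM in AE, against 2.77, 2.99 and 2.37 CPM in E14.5. Nr1i2, which encodes the drug-sensing receptor PXR, stood at 151 ± 47.0 CPM in AE and 33.0 ± 1.08 CPM in E14.5 (SD, n = 3 each). The 3 lower genes were Aldh1a2, the retinoic acid synthesis gene, Cyp26b1, which degrades retinoic acid, and Cyp1b1. Aldh1a2 had 0 counts in every AE library, against 7.15, 6.56 and 5.98 CPM in E14.5, while Aldh1a1, another retinaldehyde dehydrogenase gene, had 744, 1676 and 1663 CPM in AE, against 16.2, 17.5 and 11.95 CPM in E14.5.

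Of 28 genes for minerals and vitamins, 20 were higher and 7 lower, with a median of 2.25. Rbp2, the cellular retinol-binding protein of the enterocyte, had 1434, 2567 and 2334 CPM in AE, against 3.24, 3.22 and 3.38 CPM in E14.5. Vdr, the vitamin D receptor gene, had 876, 1204 and 1293 CPM in AE, against 4.44, 3.75 and 4.79 CPM in E14.5. Iron genes split, with Fth1, the ferritin heavy chain, at 2672 ± 904 CPM in AE and 166 ± 6.00 CPM in E14.5, and Tfrc, the transferrin receptor through which dividing cells take up iron, at 486 ± 132 and 1335 ± 95.5 CPM (SD, n = 3 each, adjusted p = 1.11e-06). Slc40a1, the iron exporter ferroportin, did not pass the test (52.2, 104 and 79.1 CPM in AE, against 89.7, 89.2 and 72.9 CPM in E14.5, adjusted p = 0.667). Of 23 salt and water transport genes, 21 were higher and 0 lower, with a median of 4.83, among them Slc13a2, a dicarboxylate transporter with 85.9, 453 and 175 CPM in AE and 0, 0.0585 and 0.0879 CPM in E14.5.

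Of 12 genes known from the suckling gut, 5 were higher and 6 lower in AE, shares near those of all genes, with a median log2 change of -0.54. Prdm1, encoding the repressor Blimp1 that holds back the adult programme before weaning in mice, had 15.6, 29.3 and 40.9 CPM in AE, against 567, 594 and 524 CPM in E14.5, a log2 change of -4.32 ± 0.28 (SE, adjusted p = 4.37e-09). Lrp2 and Dab2, of the endocytic machinery, were lower in AE, at 0 and 0.132 CPM against 32.8 and 14.7 CPM in E14.5. Lct, also on this list, and Cubn, the vitamin B12 complex receptor, were higher, with Cubn at 387, 1231 and 1317 CPM in AE, against 159.7, 167 and 161 CPM in E14.5. Of 20 genes for arginine, citrulline and proline, 9 were higher and 6 lower (45% and 30%), with a median of 0.14 that turned to -0.04 without AE replicate 1. Arg2, the mitochondrial arginase, had 313, 448 and 486 CPM in AE, against 0.498, 0.527 and 0.483 CPM in E14.5, and 21.2% of its sequence is shared. Cps1, carbamoyl phosphate synthetase, had 3707, 1915 and 2109.9 CPM in AE, against 3182, 3304 and 3116 CPM in E14.5 (adjusted p = 0.235), with AE replicate 1 the highest of the 6, and was lower without AE replicate 1 (adjusted p = 0.00357) and with upper-quartile scaling, and higher with the libraries titled E12.5 in place of E14.5.

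**Figure D3:**
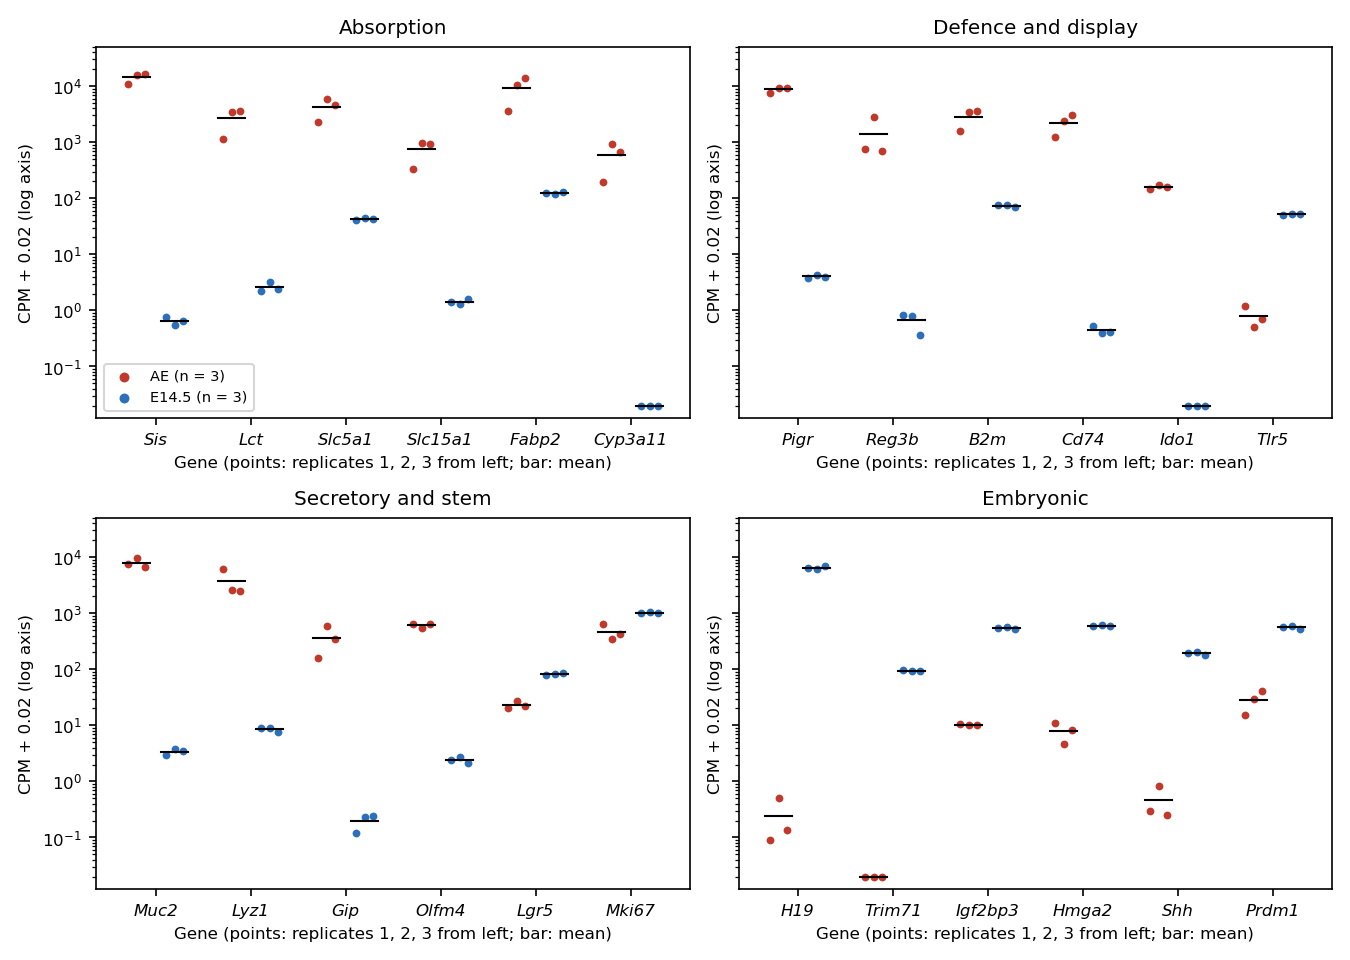
Level of 24 genes in each library, with AE to the left of E14.5 for every gene (CPM + 0.02, log axis; points are replicates 1 to 3 from the left, bars the mean of 3). The groups did not overlap for any of the 24, as for 81.5% of all genes tested, and some of the 24 were chosen after their values were seen. AE replicate 1 was the lowest AE library for the 6 genes of absorption and the highest for Lyz1 and Mki67.

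Genes that face microbes were higher in AE with few exceptions. Of 28 mucosal defence genes, 26 were higher in AE, with a median log2 change of 6.75. Pigr, the receptor that carries IgA into the lumen, had 7497, 9406 and 9298 CPM in AE, against 3.81, 4.33 and 3.91 CPM in E14.5, a log2 change of 11.08 ± 0.33 (SE, adjusted p = 4.72e-12). The antibacterial lectin genes Reg3b and Reg3g varied among the AE libraries: Reg3b had 747, 2805 and 702 CPM in AE, against 0.822, 0.781 and 0.352 CPM in E14.5, and Reg3g had 707, 1264 and 320.1 CPM in AE, against 0.0249, 0.0390 and 0.0439 CPM in E14.5. Ido1, the first enzyme of tryptophan breakdown, had 149, 175 and 157 CPM in AE, against 0 counts in every E14.5 library, at least 6096-fold higher and with little spread within AE. The member that was lower was Tlr5, the receptor for bacterial flagellin, which had 1.16, 0.490 and 0.685 CPM in AE, against 51.2, 53.3 and 52.6 CPM in E14.5, a log2 change of -5.89 ± 0.24 (SE, adjusted p = 4.94e-11). Tlr3, the receptor for double-stranded RNA, was higher, at 77.7 ± 15.0 CPM in AE and 1.32 ± 0.400 CPM in E14.5 (SD, n = 3 each).

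Genes of antigen presentation were higher in AE. All 9 tested genes of MHC class II presentation were higher in AE, with a median log2 change of 9.73. Cd74, the class II chaperone, had 1237, 2392 and 3033 CPM in AE, against 0.498, 0.371 and 0.396 CPM in E14.5. H2-Aa, a class II chain, had 444, 948 and 1376 CPM in AE, against 0.0748, 0 and 0.0439 CPM in E14.5, with 4 counts over the E14.5 libraries. Ciita, the factor that switches this set on, had 47.0, 55.4 and 66.5 CPM in AE, against 0.449, 0.254 and 0.396 CPM in E14.5. Of 24 class I genes, 22 were higher and 0 lower, with a median of 3.96. B2m, the shared light chain, had 1572, 3425 and 3598 CPM in AE, against 74.96, 75.8 and 69.8 CPM in E14.5, and Nlrc5, the class I activator, stood at 9.43, 21.9 and 16.2 CPM in AE, against 0.0997, 0.0195 and 0 CPM in E14.5. Of 39 interferon response genes, 37 were higher, with a median of 4.38, and Ifit2 was lower. Markers of white blood cells moved in the same direction: 12 of 16 were higher and 0 lower in AE (3 lower without AE replicate 1), and their summed level was 82.9, 74.4 and 58.7 CPM in AE, against 33.8, 31.9 and 33.0 CPM in E14.5. Of that sum, 1 member gave 42.9, 34.8 and 25.7 CPM in AE, against 10.1, 10.1 and 10.5 CPM in E14.5. It shares 66.3% of its sequence with other genes and is uncertain. The CD45 gene Ptprc stood at 1.44, 2.53 and 1.48 CPM in AE, against 0.150, 0.293 and 0.0879 CPM in E14.5. The part of such cells in the class II values was not tested.

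The secretory cell types were mostly an adult feature. Of 20 goblet cell markers, 19 were higher in AE and 1, Kcnj16, a potassium channel gene, was lower, with a median log2 change of 4.68. Fcgbp, a mucus protein gene, had 10530.3, 13032 and 7215 CPM in AE, against 158, 168 and 133 CPM in E14.5. Zg16 had 2409, 5135 and 2412 CPM in AE, against 0, 0.0781 and 0 CPM in E14.5. Atoh1, the factor that sets the secretory fate, stood at 29.0 ± 5.84 CPM in AE and 6.12 ± 0.770 CPM in E14.5 (SD, n = 3 each, log2 change 2.24). All 18 tested genes of the Paneth cell list were higher, with a median of 9.52, or 8.24 with the 6 that had 0 counts in E14.5 at their bound. Their summed level was 7691, 4322 and 4098 CPM in AE, against 12.2, 11.96 and 11.6 CPM in E14.5. Of the AE sums, 1 member made up 323, 1204 and 1003 CPM, and was lowest in replicate 1, where Lyz1 and the sum were highest. Of 26 enteroendocrine markers, 21 were higher and 4 lower, with a median of 2.96. Hormone genes were among the higher, with Gip at 157, 589 and 352 CPM in AE, against 0.0997, 0.215 and 0.220 CPM in E14.5, Cck at 229, 448 and 437 CPM in AE, against 3.36, 2.44 and 4.13 CPM in E14.5, and Nts at 84.2 CPM in AE against 0.0130 CPM in E14.5. The 4 lower genes were the lineage factors Neurog3, Pax4, Nkx2-2 and Rfx6, and Pax4 was not called without AE replicate 2, AE replicate 3 or E14.5 replicate 3. With the libraries titled E12.5 in place of E14.5, Neurog3, Nkx2-2 and Pax4 were not called. Neurog3, which starts the endocrine lineage, had 2.91, 1.14 and 3.20 CPM in AE, against 17.8, 15.7 and 18.7 CPM in E14.5. Chgb, a granule protein gene, had 863, 791 and 940.3 CPM in AE, against 64.5, 54.4 and 124 CPM in E14.5. Of 11 tuft cell markers, 7 were higher and 2 lower, with a median of 1.53, and Dclk1 had 16.5, 21.0 and 18.4 CPM in AE, against 1.02, 1.05 and 0.659 CPM in E14.5. The summed level of the tuft list went the other way, at 321, 289 and 277 CPM in AE, against 489, 487 and 428 CPM in E14.5. Of it, 1 lower member gave means of 244 CPM in AE and 454 CPM in E14.5.

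**Figure D4:**
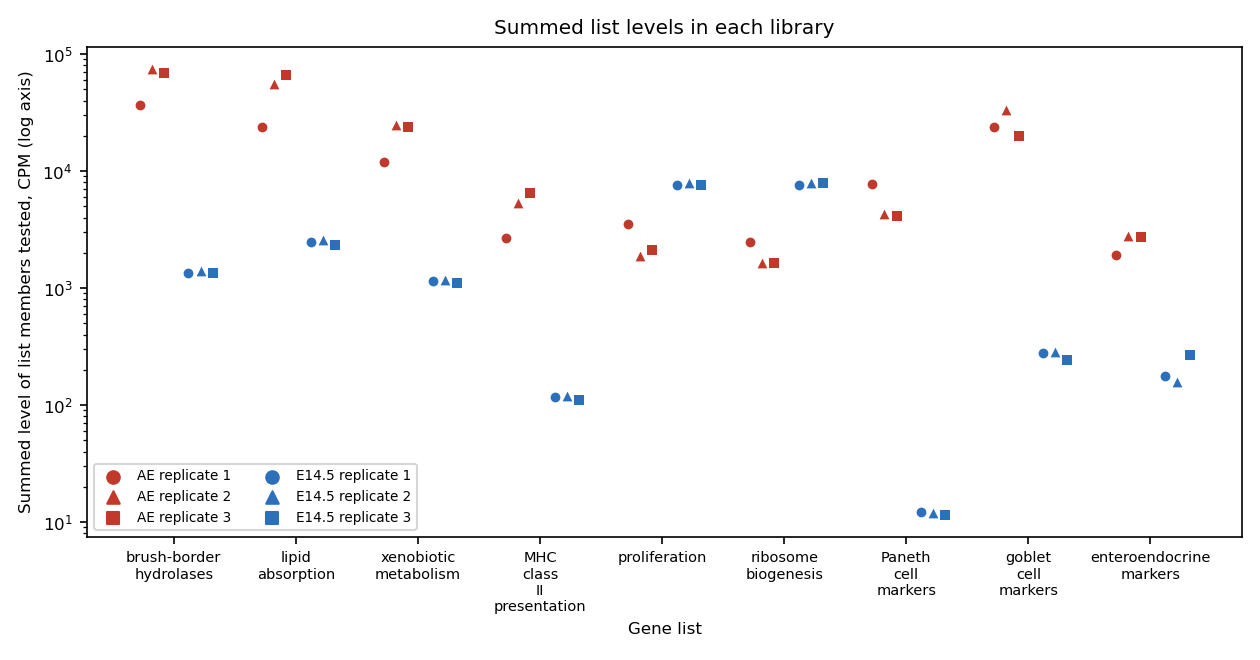
Summed level of the tested members of 9 gene lists in each library (CPM, log axis), with AE to the left of E14.5 and a symbol for each replicate. AE replicate 1 is the lowest AE library for the 3 absorptive lists and class II presentation and the highest for proliferation, ribosome biogenesis and Paneth cell markers, and no list overlaps between the groups.

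Genes of cell division and ribosome production were lower in AE without exception on these lists. All 42 proliferation genes were lower, with a median log2 change of -1.79. Top2a, the topoisomerase of dividing cells, had 457, 216 and 249.7 CPM in AE, against 938, 986 and 916 CPM in E14.5, and AE replicate 1 was the highest AE library. Mcm4, of the replication helicase, had 70.3, 35.6 and 38.3 CPM in AE, against 264, 277 and 288 CPM in E14.5. The summed level was 3495, 1894 and 2101 CPM in AE, against 7619, 7863 and 7604 CPM in E14.5. All 34 ribosome biogenesis genes were lower, with a median of -1.80. Ncl, the nucleolin gene, had 746, 511 and 477 CPM in AE, against 2443, 2458 and 2533 CPM in E14.5, and Nop56, of the ribosomal RNA methylating complex, had 101.2, 43.0 and 56.3 CPM in AE, against 384, 375 and 385 CPM in E14.5. Of 19 cell-cycle inhibitors and D cyclins, 9 were higher and 7 lower (47.4% and 36.8%), shares near those of all genes. The related inhibitors Cdkn1a and Cdkn1c parted: Cdkn1a, known as p21, had 375, 385 and 500.1 CPM in AE, against 108, 109 and 110.1 CPM in E14.5, whereas Cdkn1c, the imprinted p57 gene, had 6.45, 10.9 and 6.51 CPM in AE, against 142, 148 and 124 CPM in E14.5, with 24.9% of its sequence shared. Ccnd2, a D cyclin gene, had 447, 302 and 281 CPM in AE, against 1270.4, 1302 and 1296 CPM in E14.5, while Ccnd1, at 131 ± 44.1 CPM in AE and 115 ± 0.988 CPM in E14.5, did not pass (SD, n = 3 each, adjusted p = 0.348, and 0.0361 without AE replicate 3). Ccnd1 shares 21.6% of its sequence and is uncertain. Rb1, the retinoblastoma gene that holds cells out of S phase, had 244, 254 and 300.3 CPM in AE, against 21.8, 23.1 and 18.9 CPM in E14.5.

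Fetal growth genes were the counterpart of the absorptive lists. Of 27 genes of the Myc, Lin28 and oncofetal list, 21 were lower in AE and 2 higher, with a median log2 change of -4.28, or -3.84 with the 4 genes at 0 counts in AE at their bound. Lin28b, which blocks let-7 microRNA processing, had 0 counts in every AE library, against 13.2, 13.5 and 11.3 CPM in E14.5, at least 209-fold lower. The 3 Igf2bp genes, whose proteins bind fetal growth messages, differed in what remained in AE: Igf2bp1 had 1 count in AE, Igf2bp3 had 10.3, 10.1 and 10.3 CPM in AE, against 554, 559.6 and 516 CPM in E14.5, and Igf2bp2 had 108, 86.3 and 99.1 CPM in AE, against 325, 344 and 332 CPM in E14.5. Hmga2, a chromatin protein gene targeted by let-7, had 11.1, 4.57 and 8.34 CPM in AE, against 595, 619 and 589.7 CPM in E14.5. Sox11, a factor of embryonic progenitors, had 0.0701, 0 and 0 CPM in AE, against 198, 188 and 174 CPM in E14.5. Myc, on the same list, had 37.4, 50.8 and 43.5 CPM in AE, against 205, 205 and 183 CPM in E14.5. With the libraries titled E12.5 in place of those titled E14.5, Myc was not called (adjusted p = 0.445). The 2 higher genes were Nrarp, a Notch feedback gene with 77.3% of its sequence shared and so uncertain, and Afp, alpha-fetoprotein, at 104 ± 20.9 CPM in AE and 42.4 ± 4.43 CPM in E14.5 (SD, n = 3 each, adjusted p = 2.61e-06).

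Of 29 imprinted genes, 27 were lower and 1, Zrsr1, higher, with a median of -5.43, or -4.92 with the 7 genes at 0 counts in AE at their bound. Zrsr1 missed the threshold by limma-voom, with upper-quartile scaling, with the libraries titled E12.5 and without AE replicate 2, AE replicate 3 or E14.5 replicate 3. Igf2, the fetal growth factor gene beside H19, had 4.52, 8.90 and 10.6 CPM in AE, against 3624, 3646 and 3851 CPM in E14.5, and 62.1% of its sequence also occurs in other genes. Genes of the Dlk1 and Meg3 cluster fell together, with Meg3, a noncoding RNA, at 0.175, 0 and 0.457 CPM in AE, against 187, 187 and 178 CPM in E14.5, and Dlk1 at 0.841, 1.06 and 0.457 CPM in AE, against 18.5, 15.9 and 17.0 CPM in E14.5. Grb10, an adaptor that restrains growth signals, had 0.666, 0.245 and 0 CPM in AE, against 788, 771 and 746 CPM in E14.5. Less strongly changed were Igf2r, the receptor that clears Igf2, and Gnas, a G protein subunit, with log2 changes of -1.05 and -0.75. The summed level of the list was 964, 1161 and 1095 CPM in AE, against 14047, 13801 and 14472 CPM in E14.5.

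Hox genes, which pattern the body axis, were low in both groups. Of 17 tested, 14 were lower in AE and 1, Hoxb9, higher, with a median log2 change of -4.54, or -3.30 with the 4 genes at 0 counts in AE at their bound. Their summed level was 4.38, 8.99 and 2.28 CPM in AE, against 35.0, 32.2 and 30.2 CPM in E14.5. Hoxb3 had 0.596, 0.245 and 0.457 CPM in AE, against 5.98, 5.23 and 5.67 CPM in E14.5, and 51.4% of its sequence is shared. Hoxb9 had 1.12, 2.70 and 0.228 CPM in AE, against 0.374, 0.371 and 0.0879 CPM in E14.5, so the groups overlapped. Hox genes are also strongly used in gut mesenchyme, whose markers were higher in E14.5, and the part of such cells was not tested.

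**Figure D5:**
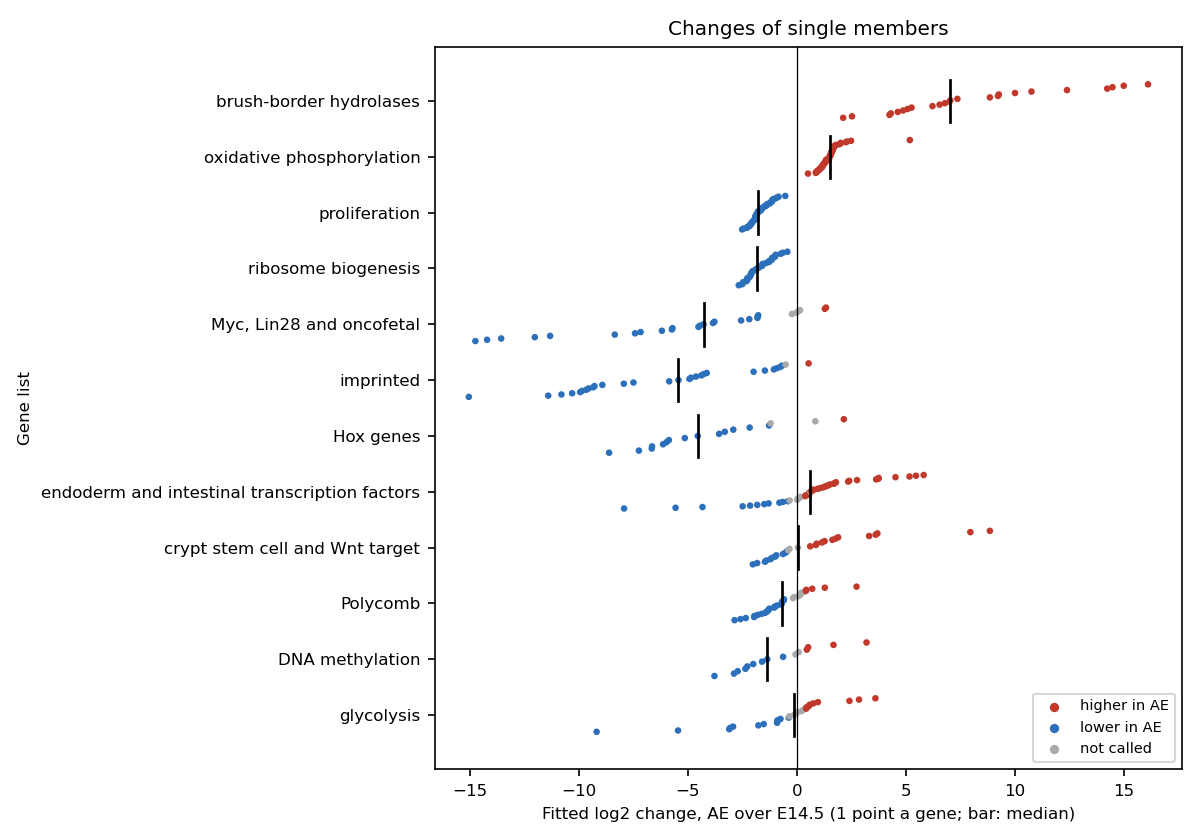
Fitted log2 change, AE over E14.5, of each tested member of 12 gene lists (1 point a gene, bar at the median, coloured by call). The values of genes at 0 counts in a group depend on the prior count of the fit. Brush-border hydrolases and oxidative phosphorylation lie wholly to the right and proliferation and ribosome biogenesis wholly to the left, while the transcription factor, stem cell, Polycomb, DNA methylation and glycolysis lists spread over both sides.

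Transcription factor genes of intestinal identity changed in both directions. Of 47 endoderm and intestinal factors, 29 were higher in AE and 11 lower, with a median log2 change of 0.63. Cdx2, the master homeobox gene of the intestine, had 61.0, 56.4 and 69.4 CPM in AE, against 58.9, 54.9 and 55.6 CPM in E14.5, overlapping and not called (adjusted p = 0.385). Hnf4a, a nuclear receptor gene of digestive epithelium, had 2378, 2074 and 2019 CPM in AE, against 1037, 1042 and 1000.1 CPM in E14.5, and its paralog Hnf4g had 1207, 1385 and 1881 CPM in AE, against 215, 229 and 212 CPM in E14.5. Cdx1 had a log2 change of 1.53. Among the higher was Maf, a large Maf factor gene, which had 141, 321 and 309 CPM in AE, against 6.08, 5.50 and 5.71 CPM in E14.5. Klf4, which accompanies exit from the cycle in gut epithelium, had 205, 297 and 413 CPM in AE, against 25.1, 25.4 and 22.3 CPM in E14.5. Sox9, of progenitors, had 37.1, 34.2 and 36.3 CPM in AE, against 159, 157 and 158 CPM in E14.5, and Grhl3, a grainyhead factor, had 0.175, 0.0817 and 0.114 CPM in AE, against 39.7, 35.9 and 30.0 CPM in E14.5.

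Stem cell and Wnt target genes split, with 13 of 27 higher and 11 lower in AE, shares near those of all genes, and a median of 0.06 that turned to -0.07 without AE replicate 1. Lgr5 and Olfm4, both markers of adult crypt stem cells, moved in opposite directions. Lgr5, the R-spondin receptor, had 20.6, 26.9 and 22.5 CPM in AE, against 78.5, 81.2 and 85.8 CPM in E14.5, a log2 change of -1.81 ± 0.15 (SE, adjusted p = 5.42e-08). Olfm4, a secreted glycoprotein of crypt stem cells, had 641, 538 and 638 CPM in AE, against 2.37, 2.67 and 2.11 CPM in E14.5, a log2 change of 7.97 ± 0.38 (SE, adjusted p = 2.5e-10). With the libraries titled E12.5 in place of those titled E14.5, Lgr5 was not called (adjusted p = 0.568). Axin2, a Wnt feedback gene, had 106, 95.7 and 124.6 CPM in AE, against 56.5, 56.6 and 59.8 CPM in E14.5. In signalling, 12 of 30 Hedgehog, BMP and Notch genes were higher and 14 lower, shares near those of all genes, with a median of -0.23. Shh, the ligand by which embryonic epithelium signals to mesenchyme, had 0.280, 0.817 and 0.228 CPM in AE, against 193, 202 and 182 CPM in E14.5, with 23.6% of its sequence shared, whereas the related ligand gene Ihh had 27.97, 25.9 and 30.4 CPM in AE, against 29.6, 29.6 and 30.5 CPM in E14.5 and was not called (adjusted p = 0.548, and 0.0353 with upper-quartile scaling and 0.00805 with the libraries titled E12.5). The Notch receptor genes Notch1, Notch2 and Notch3 were lower, with log2 changes of -1.71, -1.96 and -4.51. The paralogous ligand genes Jag1 and Jag2 parted: Jag1 had 28.8, 18.5 and 25.8 CPM in AE, against 7.85, 7.57 and 8.31 CPM in E14.5, and Jag2 had 2.07, 1.96 and 1.26 CPM in AE, against 11.5, 11.1 and 11.4 CPM in E14.5. Id1, a BMP target, had 67.0, 83.0 and 65.4 CPM in AE, against 12.1, 13.4 and 12.3 CPM in E14.5.

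The series title names chromatin states, and genes of chromatin enzymes changed in both directions. Of 33 Polycomb genes, whose complexes place repressive histone marks, 21 were lower in AE and 5 higher, with a median log2 change of -0.68. The methyltransferase genes parted: Ezh2 had 92.4, 72.8 and 70.5 CPM in AE, against 186, 193 and 187 CPM in E14.5, and Ezh1 had 79.0, 92.8 and 87.0 CPM in AE, against 36.8, 35.3 and 33.6 CPM in E14.5. The core partners Eed and Suz12 were lower by 0.71 and 0.66 on the log2 scale, and Eed was not called with the libraries titled E12.5 (adjusted p = 0.0937). The accessory PHD-finger genes moved in opposite directions, Phf19 at 2.84, 3.10 and 1.48 CPM in AE, against 18.1, 19.3 and 18.5 CPM in E14.5, and Phf1 at 14.6, 26.5 and 32.1 CPM in AE, against 3.26, 3.10 and 4.53 CPM in E14.5, the second with 28.3% of its sequence shared. Phf19 was not called with the libraries titled E12.5 (adjusted p = 0.308), so the opposite directions depend on which embryonic libraries are used. Of 20 H3K4 methylation and trithorax genes, which act at active promoters, 11 were lower and 3 higher, with a median of -0.41. Men1, the menin gene, had 37.3, 25.3 and 28.2 CPM in AE, against 77.0, 80.1 and 72.4 CPM in E14.5, and Mll3, an H3K4 methyltransferase gene, had 453, 533 and 638 CPM in AE, against 310.3, 323 and 273 CPM in E14.5, in the other direction. Of 15 DNA methylation genes, 9 were lower and 4 higher, with a median of -1.35. Dnmt1, the maintenance methyltransferase, had 139, 86.6 and 92.4 CPM in AE, against 424, 417 and 430.4 CPM in E14.5, and its partner Uhrf1 had 53.1, 29.1 and 28.8 CPM in AE, against 233, 243 and 257 CPM in E14.5. Dnmt3a and Dnmt3b, which set new methylation, were lower, with Dnmt3a at 148, 132 and 157 CPM in AE, against 699.7, 723 and 679.5 CPM in E14.5. Among the demethylating enzymes, Tet1 had 5.96, 6.13 and 5.71 CPM in AE, against 82.6, 84.4 and 77.2 CPM in E14.5, and Tet3 was higher by 0.46 on the log2 scale. Tet2 was not called (147 ± 15.9 CPM in AE and 152 ± 4.86 CPM in E14.5, SD, n = 3 each), but was lower in AE with upper-quartile scaling (adjusted p = 0.0107) and against the libraries titled E12.5 (adjusted p = 0.0225). Dnmt1, Uhrf1 and Ezh2, which dividing cells use, were highest among the AE libraries in replicate 1, as the proliferation genes were, and the part of dividing cells in these values was not tested.

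Genes of respiration were higher in AE. All 49 oxidative phosphorylation genes were higher in AE, with a median log2 change of 1.51. Atp5b, the catalytic subunit of ATP synthase, had 11088, 8387 and 8913 CPM in AE, against 4908, 5111 and 4739 CPM in E14.5. Of 33 genes for fatty acid oxidation and ketogenesis, 28 were higher and 3 lower, with a median of 1.46. Ppargc1a, the coactivator of mitochondrial genes, had 258, 392.3 and 510.3 CPM in AE, against 11.99, 12.02 and 9.84 CPM in E14.5. Of 27 glycolysis genes, 9 were higher and 12 lower, shares near those of all genes, with a median of -0.13. The phosphofructokinase genes parted, Pfkp at 454, 481 and 400.0 CPM in AE, against 85.5, 85.9 and 78.0 CPM in E14.5, and Pfkl at 43.3, 41.8 and 34.6 CPM in AE, against 308, 313 and 289.8 CPM in E14.5. So did the lactate dehydrogenase genes, with Ldha at 3181, 2719 and 2884 CPM in AE, against 2189, 2264 and 1973 CPM in E14.5, and Ldhb at 0.210, 0.327 and 0.571 CPM in AE, against 15.2, 14.9 and 10.9 CPM in E14.5. Ldha was not called with upper-quartile scaling, and Ldhb shares 21.0% of its sequence and is uncertain. Slc2a1 and Slc2a3, the glucose transporters of growing cells, were both lower, with Slc2a1 at 37.4, 23.5 and 29.2 CPM in AE, against 259.9, 266 and 231 CPM in E14.5, and Slc2a3 at 0.0350, 0 and 0 CPM in AE, against 16.0, 15.2 and 12.3 CPM in E14.5. Pkm did not pass (adjusted p = 0.913, and 0.0435 with upper-quartile scaling), while Pklr, the pyruvate kinase of liver and gut, had 376, 439 and 426 CPM in AE, against 58.1, 57.3 and 55.6 CPM in E14.5. The shared sequence of Pkm was 25.8% and that of Pklr 20.5%, so both are uncertain. Of 24 cholesterol synthesis genes, 13 were lower and 2 higher, with a median of -0.49.

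Adhesion genes were mostly higher in AE. Of 40, 29 were higher and 4 lower in AE, with a median log2 change of 0.97. Cdh1, E-cadherin, and Epcam, the sorted surface protein, had log2 changes of 0.78 and 0.91. Cldn15, a pore-forming claudin, had 336, 573 and 477 CPM in AE, against 2.69, 3.32 and 3.69 CPM in E14.5, whereas Cldn6, a fetal claudin counted on the oncofetal list, had 0.421, 1.39 and 0.571 CPM in AE, against 239.9, 230.0 and 231 CPM in E14.5. Krt20, the keratin of mature villus cells, had 912, 2276 and 2038 CPM in AE, against 29.2, 29.6 and 28.7 CPM in E14.5, and Cdh2, N-cadherin, had 0 counts in AE and 5.03, 3.49 and 4.57 CPM in E14.5. Ceacam20, a microvillus glycoprotein gene, had 185, 357 and 427 CPM in AE, against 0.0498, 0.0585 and 0.0439 CPM in E14.5. Of 29 apoptosis and shedding genes, 22 were higher and 4 lower, with a median of 1.23. Casp1, the inflammasome protease gene, had 362, 354 and 308 CPM in AE, against 0.324, 0.215 and 0.308 CPM in E14.5, and Bcl2, which blocks cell death, had 6.97, 6.45 and 8.79 CPM in AE, against 99.4, 101.0 and 100.1 CPM in E14.5. Of 18 clock genes, 11 were higher and 3 lower, with a median of 1.15. Nr1d1, the Rev-erb alpha repressor, had 290.0, 483 and 505 CPM in AE, against 26.3, 23.2 and 26.5 CPM in E14.5. The hour of collection is not given, so phase and level cannot be told apart for these genes.

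Of 28 immediate-early genes, which answer handling of tissue within minutes, 17 were higher and 4 lower, with a median of 1.04, and Fos had 859, 418 and 596 CPM in AE, against 62.5, 64.03 and 55.5 CPM in E14.5. Egr1 was not called (1132, 284 and 534 CPM in AE, against 430.0, 448 and 604 CPM in E14.5, adjusted p = 0.329, and 0.0337 without AE replicate 2 and 0.0257 with the libraries titled E12.5). Of 26 heat shock and unfolded protein response genes, 15 were higher and 5 lower, with a median of 0.81. The lower genes numbered 3 without AE replicate 3, E14.5 replicate 1 or E14.5 replicate 2. The AE and E14.5 tissues were dissociated differently, per the labels' protocols, and the part of the dissociation in these genes was not tested.

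Markers of mesenchyme, of enteric neurons and glia and of red cells were mostly lower in AE, unlike those of white blood cells given above. Of 26 mesenchyme and smooth muscle markers, 24 were lower in AE, and their summed level was 40.3, 41.2 and 54.9 CPM in AE, against 774, 783 and 650.2 CPM in E14.5. Col3a1, a fibrillar collagen, had 1 count over the AE libraries, against 75.7, 72.0 and 55.2 CPM in E14.5. Fn1, fibronectin, had 0.491, 0.0817 and 0.914 CPM in AE, against 298, 303 and 254 CPM in E14.5, and made up the largest part of the E14.5 sum. In the libraries titled E12.5 the means were 1568 CPM for Fn1 and 10.8 CPM for Col3a1. In those titled E14.5 they were 285 and 67.6 CPM, so these 2 genes did not move together. The 2 higher members were Tagln, a smooth muscle gene with 58.3% of its sequence shared and so uncertain, and Prrx1. Prrx1, a mesenchymal homeobox gene, had 20.2, 23.6 and 34.4 CPM in AE, against 1.05, 0.800 and 1.10 CPM in E14.5. Of 14 enteric neural and glial markers, 12 were lower and 1 higher in AE, at summed levels of 21.1, 17.0 and 31.0 CPM in AE, against 40.4, 39.1 and 33.9 CPM in E14.5. Of 10 tested markers of pancreas, liver and stomach, 7 were lower and 2 higher, and 1 was higher without AE replicate 2, AE replicate 3 or any 1 E14.5 library. All 4 tested red cell markers were lower, at summed levels of 1.96, 3.02 and 3.43 CPM in AE, against 13.3, 11.9 and 9.89 CPM in E14.5. Of 7 endothelial markers, 2 were lower and 0 higher in AE, and 4 were lower without AE replicate 2, AE replicate 3 or E14.5 replicate 3. Genes that mesenchyme also expresses, such as H19, Igf2, Gpc3 and most Hox genes, were lower in AE too, as were 41.5% of all genes. In the libraries titled E12.5 the means were 3822 CPM for H19, 4718 CPM for Igf2 and 165 CPM for Gpc3. In those titled E14.5 they were 6451, 3707 and 137 CPM, and the part of mesenchymal cells was not tested.

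The replicates of a group differed most in a few genes. In AE the widest spread among genes of at least 20 CPM was in Hspa1a, a heat shock gene, with 17.7, 163 and 1.14 CPM, Hspa1b with 19.2, 94.8 and 2.06, Nos2, the inducible nitric oxide synthase gene, with 18.7, 161 and 9.71, Cyp2c29 with 8.69, 159 and 49.1 and Ces1g with 5.47, 16.8 and 54.1 CPM. Replicate 2 was the highest in the first 4 and replicate 3 in Ces1g. The AE mean of each of these genes rests mostly on 1 library, and Hspa1a and Hspa1b share 66.3% and 62.3% of their sequence with other genes. In E14.5 the widest spread was in Ctrb1, the pancreatic chymotrypsinogen gene, with 49.9, 32.2 and 128 CPM, Chgb with 64.5, 54.4 and 124 CPM, Hist1h4d, Snhg3 and Banp. Hist1h4d, lower in AE, was not called without AE replicate 2 or E14.5 replicate 3. Snhg3 shares 60.1% of its sequence, is uncertain, and was not called with the libraries titled E12.5. For the first 4, replicate 3 was the highest E14.5 library, and for Banp, with 37.8, 38.2 and 25.5 CPM, the lowest.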

How the data were processed

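RNA from sorted cells was amplified with the Ovation kit and sequenced as NEBNext libraries, per the labels' protocols. The deposited values are raw read counts per gene symbol, and the authors used STAR 2.3.1z13, SAMtools 1.2, HTSeq 0.6.1p1 and the mm9 build, per the submitters' processing notes. Neither strand setting nor annotation is stated, so overlapping genes cannot be told apart. The 5 summary lines that name no gene were left out of library sizes and tests. Reads assigned to no gene were 33.4% to 39.0% of a library's counted reads in AE and 39.3% to 40.5% in E14.5.

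All 12 libraries were fitted with edgeR 4.0.16 (R 4.3.3) by its quasi-likelihood test, with TMM scaling and its default filter, the contrast AE minus E14.5 and Benjamini-Hochberg adjustment over 15342 genes. SE is the log2 change divided by the root of F. The fit takes 1 spread per gene for all groups, with a common coefficient of variation of 0.154 over the 12 libraries. SE and adjusted p thus do not measure the wider spread within AE or the narrower spread within E14.5. TMM factors ran from 0.696 to 0.836 in AE and 1.13 to 1.16 in E14.5. Alternatives used DESeq2 1.42.0, limma 3.58.1 (voom), other scalings, no filter, fewer libraries, a replicate block and the libraries titled E12.5. A gene's shared sequence is the share of its bases lying in stretches of 50 bases also found in another gene, and genes above 20% are called uncertain.

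The comparison and the 46 gene lists were chosen with earlier results of these data known, and 1198 of 1208 list entries matched a symbol. Named genes were the 10 largest changes each way of at least 20 CPM without overlap, the 2 largest changes and the 2 highest means of each list, the 5 widest spreads in each group, and a few markers. The rule gives 181 genes. Of 190 genes named, 108 came from it and 82 were chosen after their values were seen, and the other genes it gives are not reported here. The floors of 3 counts cover counting error only.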

Additional observations from a re-analysis of the deposited data

How the results depend on the processing

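No gene called in the fit of all 12 libraries was called the opposite way under any alternative, except with the libraries titled E12.5 in place of E14.5, where 162 genes were and 10712 were called the same way. Leaving out 1 library gave 5377 to 5638 genes higher and 6083 to 6409 lower, or 3674 to 3867 and 4343 to 4632 at a log2 change of at least 1. Restricting the table to the 6020 genes that share no 50-base stretch, an alternative chosen after seeing the data, gave 2176 higher and 2471 lower (4647 in all), 1525 and 1888 of them by log2 1 or more, since fewer genes were tested, and 82 of the 190 genes named were in it with the same direction and side of the threshold. Upper-quartile scaling moved the median of all genes to -0.37, against -0.12 with TMM, and gave 4792 higher and 7319 lower.

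With the libraries titled E12.5 in place, the log2 change turned to 3.38 for Cps1, 0.16 for Neurog3, 0.48 for Nkx2-2, 0.11 for Pax4, 0.25 for Snhg3 and -0.051 for Zrsr1, and the cause was not tested. The median of the stem cell and Wnt list turned to -0.19 with upper-quartile scaling, that of the arginine list to -0.10, and that of the suckling list to 0.52 with E12.5.

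Same-numbered AE and E14.5 libraries did not deviate together (correlations -0.03, 0.0083 and -0.03), so no pairing by number was seen. Each deviation is from a mean of only 3 libraries, so the check cannot exclude a pairing. The replicate block gave 5569 genes higher and 6304 lower. The depth of AE replicate 3, the shallowest library, limits genes near the floor.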
